A study of Mus musculus with 12 samples.

Results

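The Cyp2c genes encode the cytochrome P450 enzymes of subfamily 2C. Their mouse liver transcripts were followed here for 10 members, Cyp2c29, Cyp2c37, Cyp2c38, Cyp2c39, Cyp2c44, Cyp2c50, Cyp2c54, Cyp2c55, Cyp2c69 and Cyp2c70. Members were chosen by gene symbol from a table of 24532 genes, in which 16 genes carried a Cyp2c symbol. Each member had a single row, and all 10 passed the filter on low counts that left 14038 tested genes.

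RNA-seq was performed on whole livers of male C57BL/6 mice that entered the experiment at 10 to 12 weeks of age. WT mice were Ahr fl/fl littermates without Cre. Ahr HKO mice were Ahr fl/fl Alb-Cre animals, in which the albumin promoter drives Cre in hepatocytes, so other liver cells keep the receptor. The floxed Ahr allele was therefore carried by all 4 groups. Mice received either the Lieber-DeCarli liquid diet, with ethanol at 5% of the volume and 36% of the calories, or an isocaloric control liquid diet for 5 weeks. The groups were WT on the control diet (WT-con), WT on the ethanol diet (WT-EtOH), Ahr HKO on the control diet (HKO-con) and Ahr HKO on the ethanol diet (HKO-EtOH), with 3 livers each. The comparisons ask what ethanol did to the Cyp2c transcripts in each genotype, what loss of hepatocyte AhR did on each diet, and whether the response to ethanol differed between genotypes.

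CYP2C enzymes sit in the endoplasmic reticulum of hepatocytes, where NADPH-cytochrome P450 reductase passes electrons to their haem. They oxidize drugs and also endogenous lipids, among them arachidonic acid, which several of them turn into epoxyeicosatrienoic acids. Transcription of many Cyp2c genes responds to the constitutive androstane receptor CAR (Nr1i3) and the pregnane X receptor PXR (Nr1i2), and depends on hepatocyte nuclear factors such as HNF4A. AhR, a ligand-activated factor, is best known for driving the Cyp1 genes.

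The members lie on mouse chromosome 19. In the RefSeq annotation of GRCm38, 9 of them form a cluster at chr19:39006940-40187286 that also holds the other 6 Cyp2c genes of the table. Cyp2c44, which RefSeq lists as Cyp2c23, lies apart at chr19:44005022-44029256. Each member has 9 coding exons. Because the enzymes arose by duplication, how alike their sequences are bears on how well reads can be assigned to each of them. The first 60 coding bases of the last exon are shown, since this stretch encodes part of the haem-binding loop, including the cysteine that holds the haem iron, whose codon takes up positions 12 to 14. Sequences are 5′ to 3′ on the coding strand in GRCm38, and capitals mark bases unlike Cyp2c29.
Cyp2c29 (chr19:39330252-39330311, plus strand): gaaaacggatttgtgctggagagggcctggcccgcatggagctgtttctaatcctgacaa
Cyp2c38 (chr19:39391053-39391112, minus strand): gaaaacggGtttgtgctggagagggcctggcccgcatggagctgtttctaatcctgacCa
Cyp2c39 (chr19:39568013-39568072, plus strand): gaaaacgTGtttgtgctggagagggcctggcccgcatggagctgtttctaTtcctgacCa
Cyp2c37 (chr19:40011727-40011786, plus strand): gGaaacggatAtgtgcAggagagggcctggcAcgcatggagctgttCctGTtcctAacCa
Cyp2c54 (chr19:40038359-40038418, minus strand): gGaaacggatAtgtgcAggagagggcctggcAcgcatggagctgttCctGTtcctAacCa
Cyp2c50 (chr19:40113434-40113493, plus strand): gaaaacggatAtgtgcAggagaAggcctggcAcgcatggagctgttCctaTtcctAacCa
Cyp2c55 (chr19:39042017-39042076, plus strand): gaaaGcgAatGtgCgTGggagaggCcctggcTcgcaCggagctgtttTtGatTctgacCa
Cyp2c69 (chr19:39843017-39843076, minus strand): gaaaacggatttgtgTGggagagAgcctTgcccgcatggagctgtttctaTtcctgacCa
Cyp2c70 (chr19:40153698-40153757, minus strand): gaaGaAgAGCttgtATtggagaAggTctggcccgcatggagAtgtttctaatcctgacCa
Cyp2c44 (chr19:44005563-44005622, minus strand): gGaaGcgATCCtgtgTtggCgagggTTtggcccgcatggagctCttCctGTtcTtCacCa

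Cyp2c37 and Cyp2c54 were identical over this stretch, and Cyp2c50 differed from them at 3 bases. Cyp2c38 differed from Cyp2c29 at 2 bases and from Cyp2c39 at 2, whereas Cyp2c44 differed from Cyp2c29 at 17. Over the whole coding sequence the same groups stood out. Cyp2c29, Cyp2c38 and Cyp2c39 shared between 89.1% and 94.2% of their bases. Cyp2c37, Cyp2c50 and Cyp2c54 shared between 95.1% and 96.1%. Cyp2c55, Cyp2c70 and Cyp2c44 were more distant, and no Cyp2c transcript reached 80% identity with any of them: the closest were Cyp2c29 to Cyp2c55 at 77.6%, Cyp2c55 to Cyp2c70 at 69.8% and Cyp2c66 to Cyp2c44 at 66.9%. Cyp2c69 was nearest to Cyp2c67, a gene outside the list, at 97.7%.

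**Figure D1:**
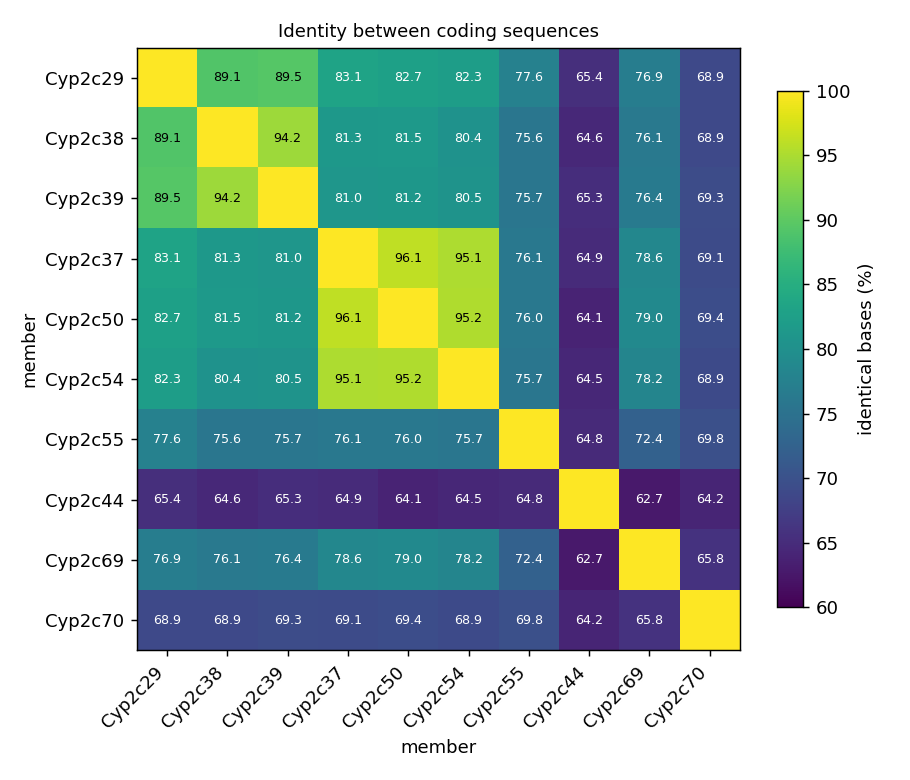
Percentage of identical bases between the coding sequences of each pair of members, from low (dark) to high (bright). The block of Cyp2c29, Cyp2c38 and Cyp2c39 runs from 89.1% to 94.2% and the block of Cyp2c37, Cyp2c50 and Cyp2c54 from 95.1% to 96.1%.

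For reads, the length of uninterrupted identity matters more than the overall figure. Of all windows of 100 bases along the Cyp2c69 transcript, 36.3% occurred unchanged in another Cyp2c transcript. This share was 9.40% for Cyp2c50, 7.59% for Cyp2c54 and 4.70% for Cyp2c37, and no such window was found for the other 6 members. The sources used here do not give how the counting treated reads that fit several genes. The values of Cyp2c69 are therefore uncertain, and those of Cyp2c37, Cyp2c50 and Cyp2c54 could exchange some reads. Only unchanged windows were counted, and reads that align with mismatches were not examined. Cyp2c39 had few reads, while its close relatives Cyp2c29 and Cyp2c38 had many more. Whether reads of these 2 were counted for Cyp2c39 was not tested. Cyp2c38 lies within the RefSeq bounds of Cyp2c39 on the opposite strand. The Cyp2c39 transcript compared here starts past Cyp2c38, at chr19:39510862, so the 2 could not share exon bases. Exons of the longer RefSeq gene were not checked. Whether the counting used strand is not given either.

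The 200 bases before the annotated gene are shown for 5 members that the results turn on, Cyp2c29 and Cyp2c38, Cyp2c37 and Cyp2c50, and Cyp2c70. They come from the RefSeq promoter table of GRCm38.p6, which held 8 of the 10 members. Capitals mark AGGTCA or AGTTCA, hexamers of the kind nuclear receptors bind, and CAAAGTCCA, a core of HNF4A sites, on either strand.
Cyp2c29 (chr19:39286844-39287043, plus strand): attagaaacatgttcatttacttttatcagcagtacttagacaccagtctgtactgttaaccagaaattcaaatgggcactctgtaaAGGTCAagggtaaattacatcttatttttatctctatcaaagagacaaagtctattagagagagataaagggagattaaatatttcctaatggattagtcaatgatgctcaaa
Cyp2c38 (chr19:39463104-39463303, minus strand): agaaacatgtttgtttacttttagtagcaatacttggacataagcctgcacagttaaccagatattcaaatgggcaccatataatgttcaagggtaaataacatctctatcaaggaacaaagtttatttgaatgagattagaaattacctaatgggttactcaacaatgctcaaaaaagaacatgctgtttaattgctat
Cyp2c37 (chr19:39992224-39992423, plus strand): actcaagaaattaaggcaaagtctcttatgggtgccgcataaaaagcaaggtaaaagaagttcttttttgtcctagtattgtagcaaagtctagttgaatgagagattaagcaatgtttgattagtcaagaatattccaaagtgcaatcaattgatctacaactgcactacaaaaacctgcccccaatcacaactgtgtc
Cyp2c50 (chr19:40089479-40089678, plus strand): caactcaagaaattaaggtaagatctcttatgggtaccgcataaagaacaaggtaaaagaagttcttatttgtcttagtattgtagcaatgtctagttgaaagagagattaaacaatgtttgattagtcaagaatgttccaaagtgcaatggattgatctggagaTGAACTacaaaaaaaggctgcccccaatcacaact
Cyp2c70 (chr19:40187287-40187486, minus strand): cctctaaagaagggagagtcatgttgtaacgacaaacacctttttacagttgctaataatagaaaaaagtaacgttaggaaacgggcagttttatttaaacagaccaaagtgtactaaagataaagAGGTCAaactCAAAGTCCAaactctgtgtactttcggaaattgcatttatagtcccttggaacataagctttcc

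The promoters resembled each other in the same groups as the coding sequences. In local alignments of the 250 bases before the start, Cyp2c37 and Cyp2c50 had 89.6% identical bases over 231 columns, Cyp2c38 and Cyp2c39 had 83.2% over 238, and Cyp2c29 and Cyp2c38 had 74.8% over 250. Motifs were searched on both strands of these 250 bases. GCGTG, the core of the AhR response element, was in none of the 8 members and in 28.2% of all 32851 promoters of the table. AGGTCA was found in Cyp2c29, Cyp2c70 and a second, upstream start of Cyp2c39, against 14.0% of all promoters. This upstream start, at chr19:39347346, lies just before the pseudogene Cyp2c72-ps at chr19:39347419. The Cyp2c39 transcript compared here starts far from it, at chr19:39510862. AGTTCA was found in Cyp2c39, Cyp2c50 and Cyp2c69, against 11.8%, and CAAAGTCCA in Cyp2c69 and Cyp2c70, against 0.384%. The CAAAGTCCA of Cyp2c70 stood 4 bases downstream of its nuclear receptor hexamer. The forkhead core TGTTTAC was found in Cyp2c38 and Cyp2c39, against 3.17%, and TTCNNNGAA, the palindrome of STAT5, in none, against 7.02%. A match of letters is a description of the sequence, and a missing match says only that these letters were not in the window.

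The libraries held 46306518 to 74336255 reads counted on genes. On these unscaled totals 3 counts, taken as the smallest detectable level, corresponded to 0.0404 to 0.0648 CPM. Gene levels in CPM are on scaled totals, so this floor is approximate for them. None of the 66 pairs of libraries was identical. Ahr itself read 20.1, 16.6 and 18.3 CPM in the WT-con livers and was higher in those labelled HKO-con, at 65.5, 41.3 and 63.3 CPM. Gene-level counts do not separate the deleted exon, so Ahr counts could not check the genotype, and groups are given as labelled. Of the AhR targets, Cyp1a2 read 617, 398 and 456 CPM in WT-con and was lower in HKO-con, at 90.7, 112 and 258 CPM. Cyp1a1, at a far lower level, went the other way, with 0.349, 0.214 and 0.204 CPM in WT-con and 0.898, 0.444 and 0.827 CPM in HKO-con. Hepatocyte marker genes were abundant in every liver, with a summed level of 75614 to 119192 CPM.

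Compared per length, in FPKM, 6 members held nearly all of the RNA of the 10 in control livers. In WT-con the order of mean FPKM ± SD (n = 3) was led by Cyp2c50 at 214 ± 49.9, followed by Cyp2c29 at 169 ± 30.1, Cyp2c70 at 145 ± 6.54, Cyp2c44 at 121 ± 32.2, Cyp2c37 at 103 ± 5.42 and Cyp2c54 at 81.3 ± 24.1. Neighbours in this order overlapped between livers down to Cyp2c54. A gap separated these from Cyp2c69 at 6.16 ± 1.54 FPKM, Cyp2c38 at 4.23 ± 0.347, Cyp2c39 at 0.547 ± 0.0454 and Cyp2c55 at 0.420 ± 0.281, of which the last 2 overlapped. In HKO-con the order was led by Cyp2c70 at 278 ± 69.2 FPKM and Cyp2c29 at 255 ± 58.9, which overlapped each other.

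After the ethanol diet Cyp2c29 stood above all other members. Its level in WT-EtOH was 1917 ± 819 FPKM, ahead of Cyp2c50 at 614 ± 142 and Cyp2c37 at 411 ± 103, and the lowest Cyp2c29 liver was above the highest Cyp2c50 liver. In HKO-EtOH the same gap was seen, with Cyp2c29 at 1117 ± 369 FPKM and Cyp2c50 at 516 ± 112. Cyp2c29 thus accounted for 20.0% ± 1.86 of the summed FPKM of the 10 members in WT-con and for 53.5% ± 5.45 in WT-EtOH (SD, n = 3). In Ahr HKO its share was 25.6% ± 0.97 on the control diet and 44.5% ± 3.11 on the ethanol diet. Cyp2c70 moved the other way as a share, from 17.4% ± 2.46 to 4.75% ± 0.96 in WT and from 27.7% ± 0.55 to 8.15% ± 2.85 in Ahr HKO.

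**Figure D2:**
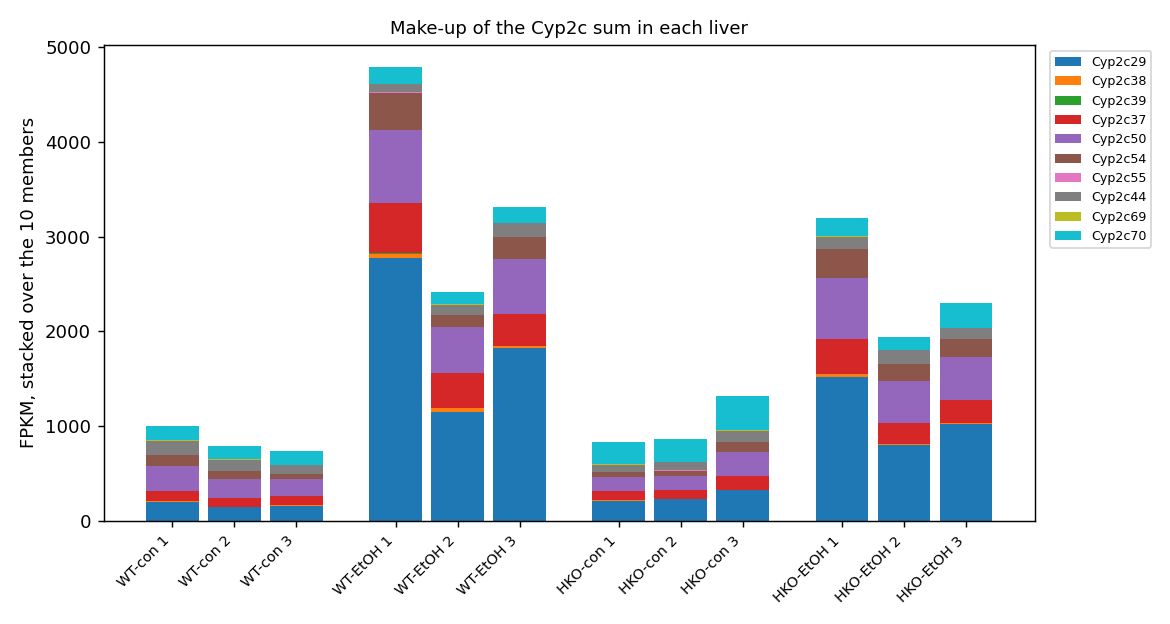
Summed FPKM of the 10 members in each of the 12 livers, stacked by gene. Cyp2c29 takes 20.0% of the bar on average in WT-con and 53.5% in WT-EtOH, while the Cyp2c70 segment is 145 FPKM on average in WT-con and 159 in WT-EtOH.

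The family sum, in CPM over the 10 members, was 1921, 1533 and 1404 in the WT-con livers and 8661, 3871 and 5673 in the WT-EtOH livers. In Ahr HKO it was 1560.0, 1535 and 2601 on the control diet and 6277, 3782 and 4655 on the ethanol diet. Every ethanol liver lay above every control liver of its genotype, while the genotypes overlapped on each diet. The mean sum was 3.75 times the control in WT and 2.58 times in Ahr HKO. Ahr HKO against WT it was 1.17 times on the control diet and 0.808 times on the ethanol diet. On the FPKM scale the ratio was 4.16 in WT and 2.47 in Ahr HKO. Much of the rise came from a single gene, and without Cyp2c29 the ratios in CPM were 2.14 and 1.92. The sum has no test, because the members were chosen with results known. In bulk liver, fewer cells of a type and less RNA per cell cannot be told apart.

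Ethanol against the control diet in WT raised 5 of the 10 members and lowered none. Called genes had an adjusted p under 0.05 and an FC above 1.5 in the quasi-likelihood test of edgeR, with Benjamini-Hochberg adjustment over all tested genes. By this rule 3.36% of all tested genes were higher and 3.4% were lower. The median log2 FC of the members was 1.52, against 0.03 over all tested genes. The called members were Cyp2c29, Cyp2c38, Cyp2c39, Cyp2c37 and Cyp2c50.

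Cyp2c29 is an arachidonic acid epoxygenase and a well-known target of CAR. It read 379.9, 274 and 303 CPM in the WT-con livers and 4979, 1805 and 3086 CPM in the WT-EtOH livers. The groups were far apart, and the ethanol livers themselves spread widely. The log2 FC was 3.37 with a standard error (SE) of 0.37 and an adjusted p of 0.00415, or 10.4-fold. Cyp2c38, its close relative and also an epoxygenase, had 13.4, 13.6 and 11.5 CPM on the control diet and 125, 102 and 69.8 CPM on the ethanol diet. No livers overlapped, and Cyp2c38 rose 7.76-fold (log2 FC 2.96, SE 0.22, adjusted p 0.0012).

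Cyp2c39, known for oxidizing retinoic acid, was the third of this group and far less abundant. It had 1.11, 1.00 and 1.17 CPM in WT-con and 4.70, 2.97 and 1.83 CPM in WT-EtOH, with 26 to 249 counts per library over all 12. The groups did not overlap, and the log2 FC was 1.54 (SE 0.35, adjusted p 0.0402). Leaving out single livers, it was not called in 5 of 6 fits, with adjusted p up to 0.132, whereas Cyp2c29, Cyp2c37 and Cyp2c38 were called in all of them.

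Cyp2c37, Cyp2c50 and Cyp2c54 belong to the cluster's other closely related group, all arachidonic acid epoxygenases. Cyp2c37 read 209, 194 and 191 CPM in WT-con and 967, 592 and 581 in WT-EtOH. The control livers were tightly grouped and every ethanol liver was higher, by 3.63-fold on average (log2 FC 1.86, SE 0.21, adjusted p 0.00449). Cyp2c50 had 514, 388 and 328 CPM on the control diet and 1399, 781 and 999 CPM on the ethanol diet. It rose 2.60-fold without overlap (log2 FC 1.38, SE 0.25, adjusted p 0.0198). Without the second or the third WT-con liver Cyp2c50 was no longer called, with an adjusted p of 0.0799 or 0.0704.

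Cyp2c54 read 199, 150.2 and 109 CPM in WT-con and 708, 196 and 384 CPM in WT-EtOH. The second ethanol liver lay just under the highest control liver, and the gene was not called (log2 FC 1.5, SE 0.44, adjusted p 0.0798). Cyp2c55, which makes hydroxylated products of arachidonic acid and is inducible through CAR and PXR, was near the low end of detection, with 1.53, 0.357 and 0.797 CPM on the control diet. Its ethanol livers had 6.10, 2.43 and 3.25 CPM, all above the control livers. It also missed the threshold (log2 FC 2.15, SE 0.55, adjusted p 0.0546). The study's volcano plot for this comparison used looser cutoffs, an adjusted p under 0.25 and an FC above 1.5, with its own test. Applied to the edgeR values here, these cutoffs added Cyp2c54 and Cyp2c55 to the other 5. That made 7 members, against 7.62% of all tested genes. The WT groups did not overlap, with ethanol higher, for 6 members, against 16.2% of all tested genes.

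**Figure D3:**
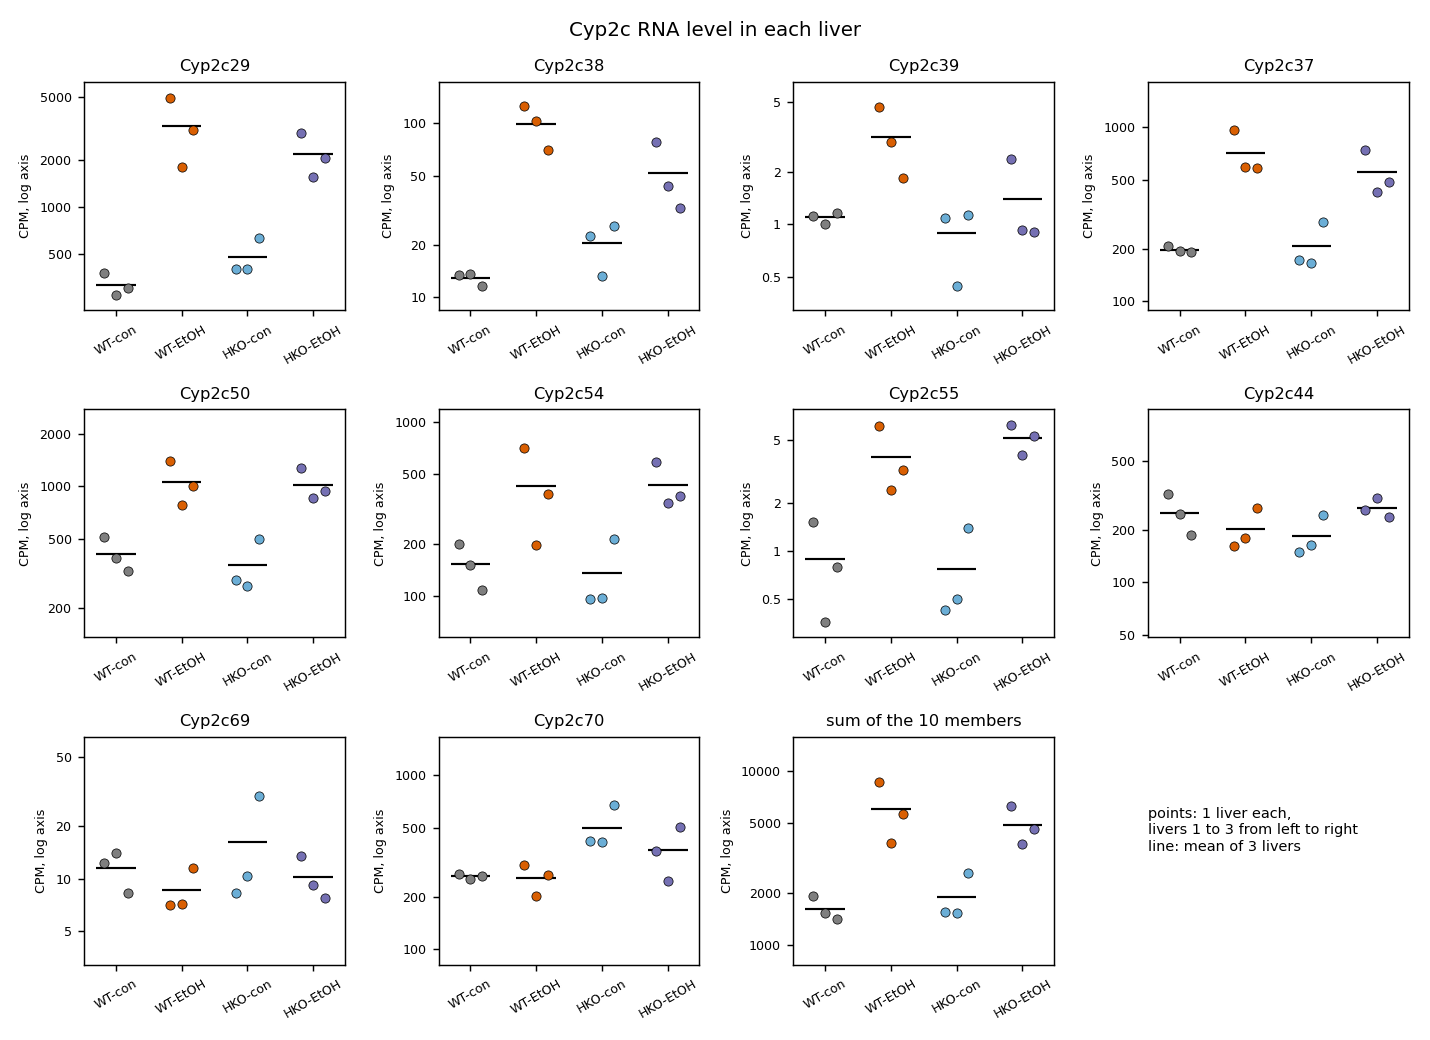
CPM of each member and of the family sum in each liver, on log axes of their own range, with a line at the mean of 3 livers. The WT-EtOH points of Cyp2c29 (1805 to 4979 CPM) stand clear of the WT-con points (274 to 379.9 CPM), whereas those of Cyp2c44, Cyp2c69 and Cyp2c70 overlap their controls.

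The 3 remaining members were not raised in WT. Cyp2c44, an epoxygenase encoded outside the cluster, read 319.9, 246 and 186 CPM in WT-con and 162, 179 and 268 in WT-EtOH, with overlapping groups (log2 FC −0.29, SE 0.25, adjusted p 0.505). Cyp2c69, a gene with higher expression in female than in male liver, had 12.4, 14.1 and 8.30 CPM on the control diet and 7.08, 7.20 and 11.6 CPM on the ethanol diet (log2 FC −0.42, SE 0.26, adjusted p 0.357). Cyp2c70, which makes muricholic acids in mouse bile acid synthesis, had 271, 252 and 264 CPM on the control diet and 303, 202 and 268 CPM on the ethanol diet. Its groups overlapped and the log2 FC was −0.02 (SE 0.15, adjusted p 0.961). A p that misses the threshold does not show that the diets were alike for these genes.

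In Ahr HKO livers the ethanol diet raised 6 members and lowered none, against 10.3% of all tested genes called higher and 11.7% called lower. The median log2 FC of the members was 1.37, against −0.02 over all tested genes. Cyp2c29 read 402, 402 and 634 CPM in HKO-con and 2955, 1543 and 2062 CPM in HKO-EtOH. The groups did not overlap and the rise was 4.55-fold (log2 FC 2.19, SE 0.30, adjusted p 0.00378). Cyp2c38 had 22.6, 13.2 and 25.6 CPM on the control diet and 78.2, 43.7 and 32.4 CPM on the ethanol diet. It rose 2.51-fold (log2 FC 1.33, SE 0.37, adjusted p 0.0333), but with single livers left out it was not called in 4 of 6 fits, with adjusted p up to 0.0846. Cyp2c39 had 1.08, 0.444 and 1.13 CPM on the control diet and 2.35, 0.926 and 0.902 CPM on the ethanol diet, which overlapped (log2 FC 0.66, SE 0.52, adjusted p 0.361).

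All members of the second related group rose in Ahr HKO. Cyp2c37 went from 173, 166 and 284 CPM to 741, 426 and 485 CPM, or 2.64-fold (log2 FC 1.40, SE 0.29, adjusted p 0.0126). Cyp2c50 went from 292, 269 and 499 CPM to 1269.6, 858 and 944 CPM, or 2.89-fold (log2 FC 1.53, SE 0.28, adjusted p 0.00871). The third HKO-con liver was the highest of its group for each of them, yet remained below every ethanol liver. Cyp2c54, not called in WT, went from 96.3, 97.9 and 212 CPM to 587, 344 and 375 CPM, or 3.21-fold (log2 FC 1.68, SE 0.37, adjusted p 0.0148). Cyp2c55 went from 0.425, 0.495 and 1.39 CPM to 6.21, 4.0 and 5.25 CPM, or 6.74-fold (log2 FC 2.75, SE 0.47, adjusted p 0.00675). Without the third HKO-con liver, the highest of its group, the log2 FC of Cyp2c55 was 3.49. Cyp2c29, Cyp2c37, Cyp2c50, Cyp2c54 and Cyp2c55 stayed called in every fit that left out a liver. The Ahr HKO groups did not overlap, with ethanol higher, for 6 members, against 24.5% of all tested genes.

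Cyp2c44 had 149, 164 and 243 CPM in HKO-con and 259, 306 and 238 CPM in HKO-EtOH, and was not called (log2 FC 0.53, SE 0.21, adjusted p 0.0964). Cyp2c69 had 8.31, 10.4 and 29.8 CPM on the control diet and 13.6, 9.23 and 7.78 CPM on the ethanol diet, with overlap (log2 FC −0.67, SE 0.49, adjusted p 0.33). The third HKO-con liver set this value, and without it the log2 FC was 0.14. Cyp2c70 had 416, 410.5 and 671 CPM on the control diet and 365, 247 and 505 CPM on the ethanol diet, again with overlap (log2 FC −0.43, SE 0.30, adjusted p 0.316).

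**Figure D4:**
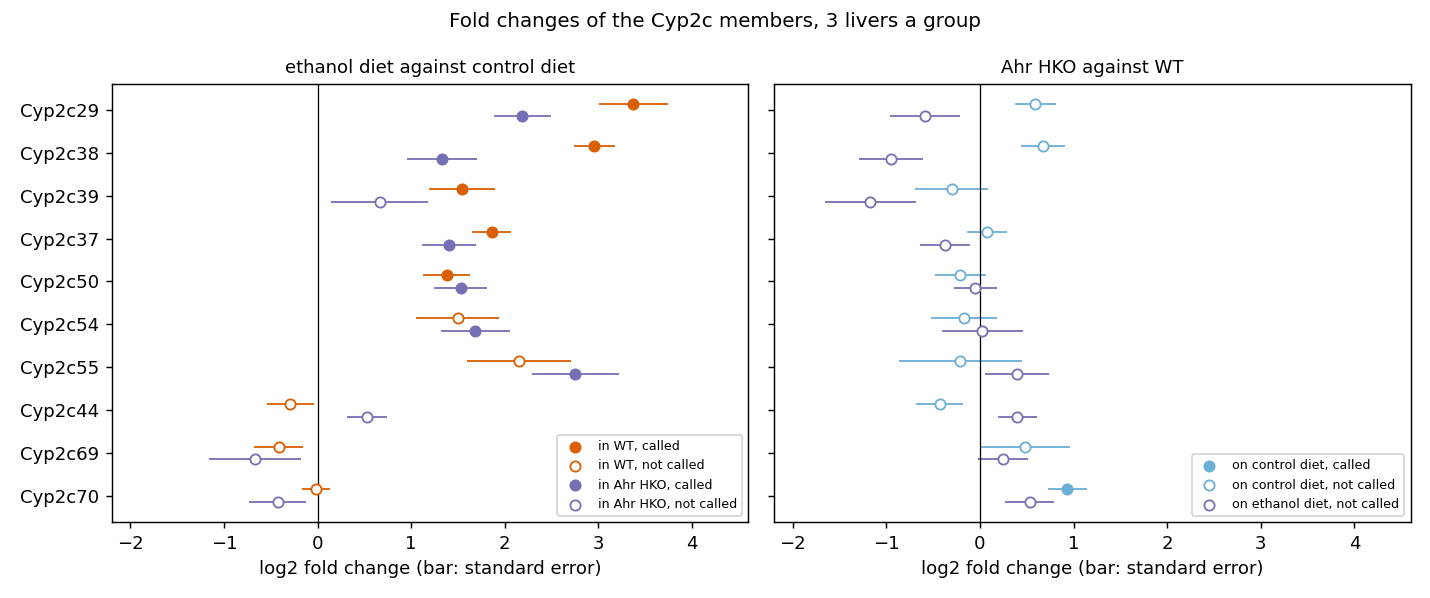
log2 FC of each member with its standard error, for ethanol against the control diet in each genotype (left) and for Ahr HKO against WT on each diet (right). Filled points are called. On the left, the upper 7 members lie above 0 in both genotypes, and on the right only Cyp2c70 on the control diet is filled (log2 FC 0.93).

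The response to ethanol was compared between the genotypes by the interaction of genotype and diet, fitted on all 12 libraries. Cyp2c38 was the only member with an adjusted p under 0.05, against 22.3% of all tested genes. Its diet effect was smaller in Ahr HKO than in WT by 1.61 on the log2 scale (interaction −1.61, SE 0.46, adjusted p 0.0295). The value ranged from −2.05 to −1.37 when single livers were left out, and in 9 of these 12 fits the adjusted p exceeded 0.05, up to 0.0649. For Cyp2c29 the interaction was −1.18 (SE 0.49, adjusted p 0.108) and for Cyp2c39 it was −0.86 (adjusted p 0.379). For Cyp2c37, Cyp2c50 and Cyp2c54 it was −0.44, 0.17 and 0.19, for Cyp2c55 0.61, for Cyp2c44 0.83 (SE 0.35, adjusted p 0.112), for Cyp2c69 −0.23 and for Cyp2c70 −0.40. Cyp2c39 was called in WT but not in Ahr HKO, and Cyp2c54 and Cyp2c55 the reverse, yet this test called no difference between genotypes for them. A missed threshold does not show that their responses were alike.

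On the control diet, loss of hepatocyte AhR raised a single member, Cyp2c70. The livers read 416, 410.5 and 671 CPM in HKO-con and 271, 252 and 264 CPM in WT-con, without overlap. Cyp2c70 was 1.91-fold higher (log2 FC 0.93, SE 0.21, adjusted p 0.015). Without the second WT-con liver the adjusted p was 0.0552. Without the third HKO-con liver, the highest of its group, the log2 FC of Cyp2c70 fell to 0.65, and the call was kept. Of all tested genes, 9.77% were higher and 10.1% were lower in Ahr HKO by the same rule, so that 1 of 10 members was near the background. The median log2 FC of the members was −0.05, against −0.00 over all tested genes.

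Cyp2c29 and Cyp2c38 were next to it in size. Cyp2c29 missed the threshold (log2 FC 0.59, SE 0.22, adjusted p 0.082), although every HKO-con liver was above every WT-con liver. Cyp2c38 missed it as well (log2 FC 0.67, SE 0.23, adjusted p 0.0667), and its second HKO-con liver lay within the WT range. Both were called by DESeq2, which gave 3 members in all, against 22.6% of all tested genes. The remaining members ranged from −0.43 for Cyp2c44 to 0.49 for Cyp2c69, with adjusted p from 0.238 to 0.839. At an adjusted p under 0.25 with an FC above 1.5, 3 members were called, against 28% of all tested genes. At an unadjusted p under 0.05 with an FC above 2, 0 were called, against 11.2%. The genotypes did not overlap on the control diet, with Ahr HKO higher, for 2 members, Cyp2c29 and Cyp2c70, against 23.2% of all tested genes.

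On the ethanol diet no member was called between the genotypes by edgeR, and 1.06% of all tested genes were. At an unadjusted p under 0.05 there were 2 members, both lower in Ahr HKO, a share near the 21% of all tested genes at this p. The log2 FC was −0.95 for Cyp2c38 (SE 0.34, unadjusted p 0.0274, adjusted p 0.184) and −1.17 for Cyp2c39 (SE 0.49, unadjusted p 0.0455, adjusted p 0.229). DESeq2 called 1 member, Cyp2c38, against 7.41% of all tested genes. The study's cutoffs for this comparison were an unadjusted p under 0.05 with an FC above 2, with its own test on normalized FPKM. Applied to the edgeR values here, they called 1 member, Cyp2c39, against 6.13% of all tested genes. An adjusted p under 0.25 with an FC above 1.5 called 2, against 12%. For Cyp2c29 it was −0.59 (adjusted p 0.407) and for Cyp2c70 0.53 (adjusted p 0.294), and the others lay between −0.37 and 0.40. Each group of livers enters 2 of these comparisons, so the diet and genotype values are not independent of each other.

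Along the cluster, the members that responded to ethanol were not neighbours of each other throughout. Cyp2c55, Cyp2c29, Cyp2c39 and Cyp2c38 lie at its start, and Cyp2c37, Cyp2c54 and Cyp2c50 near its end. Between these stretches lie Cyp2c67, Cyp2c68, Cyp2c40 and Cyp2c69, and Cyp2c70 closes the cluster. Of the tested genes in between, Cyp2c68 was called in WT, with 126, 135 and 99.7 CPM on the control diet and 242, 215 and 231 CPM on the ethanol diet (log2 FC 0.94, SE 0.13, adjusted p 0.00932). In Ahr HKO it had 123, 173 and 321 CPM on the control diet and 230, 142 and 155 CPM on the ethanol diet, and was not called. The interaction test called no difference between the genotypes for Cyp2c68 (−1.16, SE 0.42, adjusted p 0.0690). Cyp2c67 and Cyp2c40 were not called in any comparison. Cyp2c65 and Cyp2c66, between Cyp2c55 and Cyp2c29, had 0 counts in all 12 libraries.

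**Figure D5:**
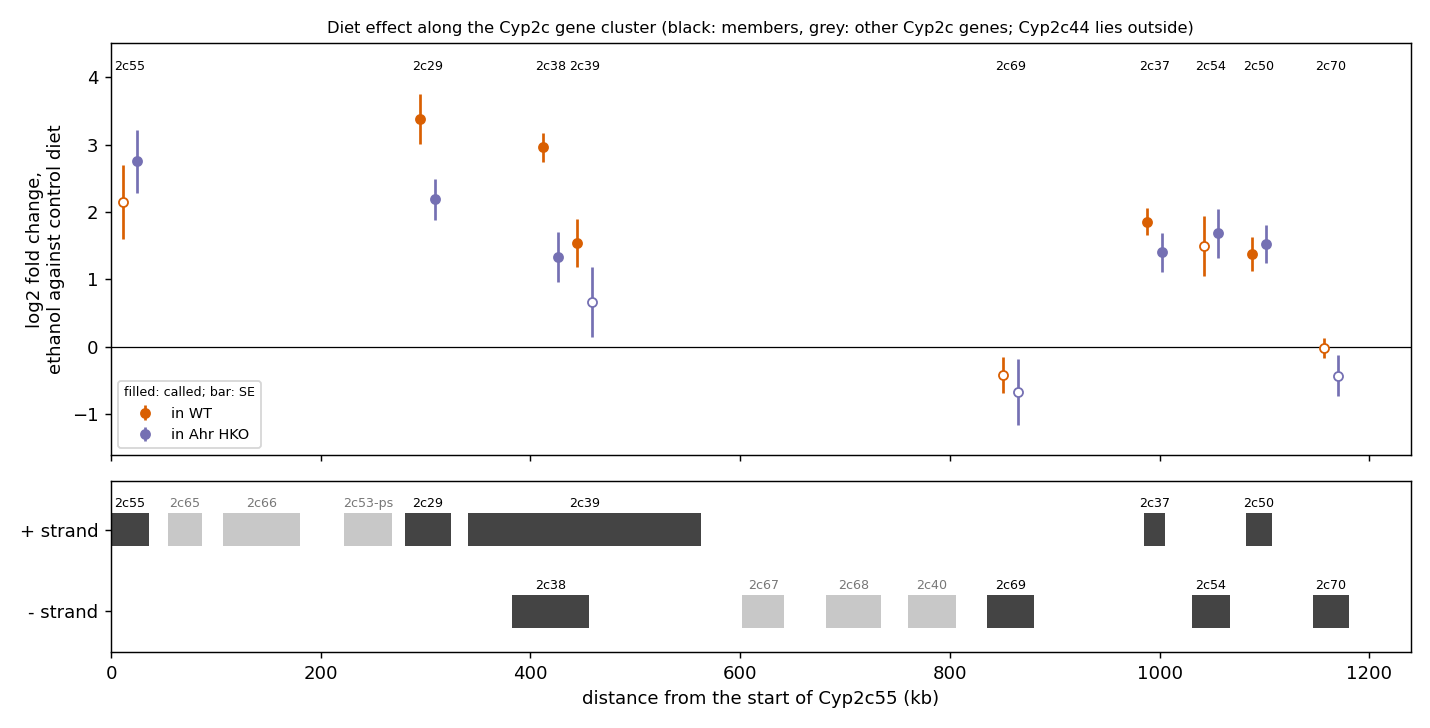
Diet effect (log2 FC with standard error) of the 9 clustered members against distance in kb from the start of Cyp2c55, above a map of the genes on each strand. Filled points are called. Members with log2 FC from 0.66 to 3.37 stand in separate stretches, with Cyp2c69 between them and Cyp2c70 at the far end, neither of them called.

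Across the 12 libraries the 7 members whose diet effect was above 0 in both genotypes had Pearson's r on log2 CPM between 0.59, for Cyp2c39 with Cyp2c55, and 0.98. It was 0.98 for Cyp2c29 with Cyp2c37, 0.97 for Cyp2c37 with Cyp2c50, 0.97 for Cyp2c50 with Cyp2c54 and 0.94 for Cyp2c29 with Cyp2c38. Cyp2c39 was the least alike, with r of 0.70 with Cyp2c29 and 0.64 with Cyp2c54, and Cyp2c38 had r of 0.78 with Cyp2c54 and 0.79 with Cyp2c55. Cyp2c70 had r from −0.35 to −0.03 with these 7, and Cyp2c44 had r of 0.09 with Cyp2c29. These values are descriptions over libraries that share their diet, genotype and scaling.

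Outside the subfamily, the genes closest to the family sum over the 12 libraries were Gstt3 (r 0.957), Abcc3 (0.955), Perp (0.954), Gstt1 (0.951) and Cyp2b10 (0.949). Cyp2b10 is the classical target of CAR in mouse liver. It had 0.262, 0 and 0 CPM in WT-con and 408, 46.8 and 94.4 CPM in WT-EtOH. In Ahr HKO it had 0.817, 0.239 and 6.78 CPM on the control diet and 172, 83.6 and 138 CPM on the ethanol diet. Cyp2b13, a relative of Cyp2b10, was the closest gene to Cyp2c29 (r 0.965), Cyp2c37 (0.976) and Cyp2c38 (0.967). Its mean level was 0 CPM in WT-con and 0.0672 CPM in HKO-con. With ethanol the mean was 108 CPM in WT and 15.6 CPM in Ahr HKO. These r thus rest largely on its absence or near absence on the control diet. The closest were BC023829 for Cyp2c39 (0.959), Gstt1 for Cyp2c50 (0.973), Pon1 for Cyp2c54 (0.958) and Gm16157 for Cyp2c55 (0.963). For the members without a diet call they were Fam151b for Cyp2c44 (0.964), Glud1 for Cyp2c69 (0.880) and BC005561 for Cyp2c70 (0.948).

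Of 13 nuclear receptors and other factors known to act on Cyp2c genes, 1 was higher with ethanol in WT, where 3.36% of all tested genes were. In Ahr HKO 3 were higher and 2 lower with ethanol, where 10.3% and 11.7% of all tested genes were. Nr1i3, which encodes CAR, was called in both. It had 103, 93.7 and 84.9 CPM in WT-con and 159, 149 and 157 CPM in WT-EtOH (log2 FC 0.74, SE 0.10, adjusted p 0.00802). In Ahr HKO it had 58.7, 45.2 and 77.2 CPM on the control diet and 135, 113 and 122 CPM on the ethanol diet (log2 FC 1.03, SE 0.20, adjusted p 0.0108). The HKO-con livers were thus the lowest for Nr1i3, and it fell by 0.63 on the log2 scale against WT-con (SE 0.20, adjusted p 0.0473). Rora, an orphan nuclear receptor, also rose with ethanol in Ahr HKO (log2 FC 0.73, SE 0.14, adjusted p 0.00942). The 2 that fell were Nr1h4, the bile acid receptor FXR (−0.61, SE 0.19, adjusted p 0.0453), and Ahr (−0.79, SE 0.24, adjusted p 0.0467). On the control diet 2 of the 13 were lower in Ahr HKO, Nr1i3 among them, and 2 were higher, Hnf4a and Ahr (log2 FC 0.97 and 1.63). There 10.1% of all tested genes were lower and 9.77% were higher. None of the 13 was called between the genotypes on the ethanol diet, where 1.06% of all tested genes were.

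Of the 5 genes of P450 electron transfer, Pgrmc1, a membrane haem protein that binds P450 enzymes, rose with ethanol in WT (log2 FC 0.68, adjusted p 0.0371) and in Ahr HKO (0.72, adjusted p 0.00834). Cyb5b, a cytochrome b5, rose in Ahr HKO (0.64, adjusted p 0.0193). Por, which encodes the reductase itself, was not called, with a log2 FC of 0.29 in WT and −0.33 in Ahr HKO. With ethanol 3.36% of all tested genes were higher in WT and 10.3% in Ahr HKO. None of the 5 was called between genotypes on either diet. On the control diet 9.77% of all tested genes were higher and 10.1% lower, and on the ethanol diet 1.06% were called.

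Of 6 epoxide hydrolases and other epoxygenases, 5 were tested. With ethanol 1 was higher in each genotype, against 3.36% of all tested genes in WT and 10.3% in Ahr HKO. This was Ephx1, the microsomal epoxide hydrolase, which rose by 2.12 on the log2 scale in WT (SE 0.17, adjusted p 0.00164) and by 1.69 in Ahr HKO (SE 0.14, adjusted p 0.00134). On the ethanol diet Ephx1 fell by 0.90 in Ahr HKO against WT (SE 0.14, adjusted p 0.0399). Ephx2, the soluble hydrolase that opens epoxyeicosatrienoic acids, had 810, 823 and 760 CPM in WT-con and 505, 484 and 542 CPM in HKO-con. It fell by 0.64 between these groups (SE 0.11, adjusted p 0.00693), and its diet effect differed between the genotypes (interaction 0.91, adjusted p 0.00575).

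Around Cyp2c70, 10 other genes of bile acid synthesis were tested. By the same rule 3.4% of all tested genes were lower with ethanol in WT. The shares were 10.1% lower in Ahr HKO on the control diet and 10.3% higher with ethanol in Ahr HKO. With ethanol in WT 3 fell, Cyp7b1 (log2 FC −2.66, adjusted p 0.000756), Cyp27a1 (−0.88) and Amacr (−0.62), and none rose. On the control diet 4 were lower in Ahr HKO, the rate-limiting Cyp7a1 (−4.33, SE 0.86, adjusted p 0.00974), Cyp8b1 (−2.54, adjusted p 0.00171), Amacr (−1.09) and Hsd3b7 (−0.92). The median log2 FC of all 10 there was −0.70, whereas Cyp2c70 stood at 0.93. With ethanol in Ahr HKO 3 rose, Cyp8b1 (1.78), Amacr (0.62) and Acox2 (0.62), and none fell. None was called between the genotypes on the ethanol diet, against 1.06% of all tested genes.

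Around Cyp2c39, 6 other genes of retinoid oxidation were tested. With ethanol in WT 3 rose and 1 fell, where 3.36% and 3.4% of all tested genes did. With ethanol in Ahr HKO 10.3% of all tested genes rose. Cyp26a1, the main retinoic acid hydroxylase, had 5.57, 4.36 and 4.72 CPM in WT-con and 50.7, 41.3 and 89.4 CPM in WT-EtOH (log2 FC 3.64, SE 0.30, adjusted p 0.00182). Lrat and Aldh1a1 rose by 1.03 and 0.94, and Rdh11 fell by 1.21. In Ahr HKO 3 rose, Cyp26a1 (4.94, SE 0.60, adjusted p 0.00284), Aldh1a7 (0.65) and Aldh1a1 (0.81). On the control diet Cyp26a1 fell by 1.29 and Rdh11 by 0.62 in Ahr HKO, where 10.1% of all tested genes fell. On the ethanol diet none of the 6 was called between the genotypes, against 1.06% of all tested genes.

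Markers of other liver cells moved with the diet in Ahr HKO, where 11.7% of all tested genes were lower and 10.3% were higher. All 6 Kupffer cell markers were lower in HKO-EtOH than in HKO-con, with a median log2 FC of −1.28 and a summed level of 256 to 628 CPM in HKO-con and 159.5 to 197 in HKO-EtOH. Of 7 leukocyte markers 3 were lower, and their summed level had a median of 24.4 CPM in HKO-con and 9.49 CPM in HKO-EtOH. Of 6 sinusoidal endothelial markers 3 were lower, with sums of 310.3 to 332 and 201 to 220.1 CPM. In the same comparison 1 of 7 hepatocyte markers was higher. In WT, 0 of 6 Kupffer cell markers were called with ethanol, with sums of 282 to 369 CPM and 247 to 652 CPM. There 2 of 7 leukocyte markers were higher, against 3.36% of all tested genes. Between the genotypes on the ethanol diet no Kupffer cell or leukocyte marker was called, with median log2 FCs of −1.16 and −1.33. In that comparison 1.06% of all tested genes were called. The summed Kupffer cell level in WT-EtOH had a median of 254 CPM, with a single liver at 652 CPM. Its median in HKO-EtOH was 173 CPM. Of 7 leukocyte markers 2 were higher and 2 lower in Ahr HKO on the control diet, and 0 of 6 Kupffer cell markers were called. The shares of all tested genes there were 9.77% higher and 10.1% lower. In the interaction 3 of 6 Kupffer cell markers (median −1.49) and 4 of 7 leukocyte markers (median −1.52) were lower, and none was higher. By the same rule 22.3% of all tested genes were called in either direction. No marker was at 0 in any group. The part of these shifts in the Cyp2c values was not tested.

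Cyp2c enzymes differ in where they are made along the liver lobule, so genes of the pericentral and periportal zones were followed as well. With ethanol in WT 1 of 8 pericentral genes was higher, Rhbg (log2 FC 2.12), and 1 lower, Cyp2e1 (−0.79), and the median of the 8 was 0.02. Their summed level was 9692 to 10496 CPM in WT-con and 6929 to 7464 CPM in WT-EtOH, of which Cyp2e1 made up a mean of 7345 and 4198 CPM. In Ahr HKO 1 was higher, with sums of 6229.9 to 9805 and 9219.9 to 10740.2 CPM. Of 8 periportal genes 2 were higher with ethanol in WT, and 4 in Ahr HKO, where the median log2 FC was 0.92. Stellate cell and cholangiocyte markers had no more than 1 of 7 and 1 of 5 called in either direction in these diet comparisons. Of all tested genes, 3.36% were higher and 3.4% lower with ethanol in WT, and 10.3% and 11.7% in Ahr HKO. Whether zonal shifts bear on the Cyp2c values was not tested.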

How the data were processed

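RNA-seq was analysed for 12 mouse livers in 4 groups of 3, formed from the genotype, diet and replicate number in the labels. Libraries were made with a stranded mRNA kit. The authors deposited raw read counts per gene, FPKM (counts scaled by gene length and library size) and TPM (not used beyond the check of its unit). The submitters' processing notes name Trimmomatic 0.38, HISAT2 2.1.0, Bowtie2 2.3.4.1, StringTie 1.3.4d and the build mm10. Strand use and the handling of shared reads in counting are not given in the sources used here. Unused sample columns numbered 0.

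Low counts were removed with filterByExpr on the 4 groups, and libraries were scaled with TMM factors (0.925 to 1.16) and genes tested with edgeR 4.0.16 (glmQLFit, glmQLFTest) in R 4.3.3, each pair of groups with its own 6 libraries and the interaction with all 12. Benjamini-Hochberg adjustment covered all 14038 tested genes. Single-gene levels are CPM on scaled totals. Levels between genes are compared in FPKM only. The test was checked on simulated counts. No pair of libraries was identical, and replicates differed by more than counting noise (chi-square per degree of freedom 68.0 to 310), so depth did not set the precision. The floor of 3 counts covers counting error only.

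Named genes were all members, at most 4 of each list by adjusted p, and the 5 genes with the highest Pearson r with the family sum and the 3 with the highest r with each member, of which the first is named (log2 CPM, prior count 2, mean count of at least 50). Cyp1a1, Cyp1a2, Nr1h4 and Ahr in the Ahr HKO diet comparison, Por in Ahr HKO and further Cyp2c genes beyond 4 were named after their values were seen. The values of 1 listed gene are not reported here. The members and lists were chosen with earlier results of these data known. Alternatives were DESeq2 1.42.0, limma 3.58.1 on log2(FPKM + 1), log2(FPKM + 0.1) and quantile-normalized FPKM, upper-quartile scaling, no filter, a minimum of 10 counts, a single fit, a replicate block, other thresholds and leaving out each liver. Positions and sequences were read from RefSeq and GENCODE annotations of GRCm38 (mm10) with Biopython 1.88. Same-numbered livers deviated together little or not at all (r from −0.09 to 0.18), so the numbers were not taken as pairs. The highest r, 0.18 and 0.13, were for livers 1 and 2 of the genotypes on the ethanol diet. Each of these was closest to its own number. Figures were drawn with matplotlib 3.10.9.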

Additional observations from a re-analysis of the deposited data

Results flagged for a closer look

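Cyp2c38 is listed because its ethanol response differed between the genotypes in the interaction test: the diet effect in Ahr HKO minus that in WT was −1.61 on the log2 scale (SE 0.46, adjusted p 0.0295 in edgeR). All 3 livers of each ethanol group were above all 3 control livers of the same genotype, so the difference is one of size. With each of the 12 livers left out in turn, it was past the threshold in 3 fits, and the other 9 had adjusted p up to 0.0649.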

How the results depend on the processing

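The 13 member calls were kept in 176 of 200 alternatives and lost their significance in 24, none with a change of sign. On the control diet Ahr HKO against WT gave 3 members with DESeq2 and 3 at an adjusted p under 0.25, and 0 at an unadjusted p under 0.05 with an FC above 2. On the ethanol diet it gave 1 with the replicate block, 1 with DESeq2, 2 at an adjusted p under 0.25 and 1 at an unadjusted p under 0.05 with an FC above 2. The interaction gave 2 members, Cyp2c29 and Cyp2c38, with DESeq2, with limma on log2(FPKM + 0.1) and on quantile-normalized FPKM, which called 28.3%, 25.2% and 22.9% of all tested genes. Without Cyp2c29 the log2 ratio of the family sum was 1.10 in WT and 0.94 in Ahr HKO. The replicate block called 5, 1, 1, 6 and 1 members in the order WT diet, genotype on control, genotype on ethanol, Ahr HKO diet and interaction. Of all 14038 tested genes, it called 283 higher and 220 lower for the WT diet. The calls were 1200 and 1212 for genotype on control, 149 and 94 for genotype on ethanol, and 1216 and 1330 for the Ahr HKO diet. For the interaction it called 2745 in either direction. The block dropped Cyp2c39 in WT (adjusted p 0.0858) and called Cyp2c55 in its place.

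Leaving out single livers gave 3 to 5 members for ethanol in WT, and 0 to 2 and 0 to 0 for genotype on the control and ethanol diets. It gave 5 to 7 for ethanol in Ahr HKO and 0 to 2 for the interaction. Of all tested genes, these fits called 191 to 423 higher and 175 to 483 lower for ethanol in WT. For genotype they called 1071 to 1344 and 1090 to 1434 on the control diet, and 6 to 98 and 1 to 91 on the ethanol diet. For ethanol in Ahr HKO they called 1104 to 1390 and 1164 to 1587, and for the interaction 2267 to 3084 in either direction. The log2 ratio of the family sum then ranged from 1.56 to 2.15, −0.07 to 0.37, −0.55 to 0.04 and 1.15 to 1.66 in the order of the first 4. Changes of sign were seen only among uncalled values. Cyp2c70 with ethanol in WT was 0.12 in limma on log2(FPKM + 1) and on log2(FPKM + 0.1), and −0.17 to 0.12 without single livers. On the control diet Cyp2c37 was −0.0020 with upper-quartile scaling. On the ethanol diet Cyp2c54 was −0.019 with upper-quartile scaling and −0.0503 and −0.0500 in limma on log2(FPKM + 1) and on log2(FPKM + 0.1), which moved the median of all genes there by −0.13 and −0.21. The Cyp2c50 interaction was −0.0256, −0.0249 and −0.10 in limma on log2(FPKM + 1), log2(FPKM + 0.1) and quantile-normalized FPKM. Without single livers, genotype on the control diet gave −0.22 to 0.22 for Cyp2c37, −0.52 to 0.0212 for Cyp2c39, −0.65 to 0.0625 for Cyp2c54, −0.95 to 0.41 for Cyp2c55 and −0.31 to 0.80 for Cyp2c69. Genotype on the ethanol diet gave −0.22 to 0.20 for Cyp2c50, −0.30 to 0.59 for Cyp2c54 and −0.0086 to 0.51 for Cyp2c69. Ethanol in Ahr HKO gave −0.98 to 0.14 for Cyp2c69. The interaction gave −0.0299 to 0.50 for Cyp2c50, −0.14 to 0.76 for Cyp2c54, −0.0139 to 1.34 for Cyp2c55 and −0.56 to 0.55 for Cyp2c69. The cause of these changes was not tested. With 3 livers a group, the spread between livers limits the values. For Cyp2c39 and Cyp2c55, which had few counts, counting error limits them as well.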

Other observations

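The pseudogene Cyp2c53-ps, which lies between Cyp2c66 and Cyp2c29, did not pass the filter on low counts. It had 0.751, 0.139 and 0.721 CPM in the HKO-EtOH livers, from 53, 9 and 32 counts, and at most 0.0682 CPM in any other liver. Cyp2c67, the nearest relative of Cyp2c69, had 239, 284 and 179 CPM in WT-con and 117, 143 and 236 CPM in WT-EtOH, and 178, 232 and 327 CPM in HKO-con and 193, 250 and 164 CPM in HKO-EtOH, with overlapping groups in each genotype.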
